A study of Mus musculus with 6 samples.

Results

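The 8 genes described here encode proteins of peripheral myelin and were fixed by symbol as *Mbp*, *Pmp22*, *Mag*, *Prx*, *Ncmap*, *Mal*, *Cldn19* and *Gjb1*, of 32285 genes counted. They were followed in single cells of 5 autonomic ganglia of P5 mouse pups of both sexes, in glia and, since their RNA was also counted there, in neurons. All pups carried a Cre transgene on a bacterial artificial chromosome and a tdTomato reporter at the *Rosa* locus that Cre switches on, and no untreated or mutant group was compared. Round 1 of sequencing, with version 2 reagents, comprised the stellate ganglion (paravertebral sympathetic), the sphenopalatine ganglion (parasympathetic) and a pelvic library, pelvic_1. Round 2, with version 3 reagents, comprised the coeliac ganglion (prevertebral sympathetic), the lumbar chain (paravertebral sympathetic) and a second pelvic library, pelvic_2. Each ganglion other than the pelvic thus had 1 library, in 1 round, so that for these ganglia the ganglion and the library cannot be told apart. At dissection the nerves leaving the ganglia had been trimmed away, and how much nerve each library kept was not measured.

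In peripheral nerves, Schwann cells that enwrap a single large axon compact their membrane into myelin, while those that hold several thin axons in pockets do not. Satellite glia, which cover the cell bodies of ganglion neurons, are relatives of both and usually form no myelin. Most postganglionic axons of autonomic ganglia are unmyelinated, whereas many preganglionic axons that enter them are thinly myelinated. *Mbp* encodes myelin basic protein, which zippers the cytoplasmic faces of the membrane, and *Pmp22* a membrane protein of compact myelin whose gene dosage matters in inherited neuropathy. *Mag* encodes an adhesion molecule of the membrane that faces the axon, *Prx* periaxin, which ties the outer membrane to the basal lamina through dystroglycan, and *Mal* a proteolipid of membrane rafts and vesicle traffic. *Ncmap* encodes a small membrane protein of non-compact myelin, *Cldn19* a claudin of the tight junctions between the lamellae of a single Schwann cell, and *Gjb1* a connexin that joins these lamellae by gap junctions.

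Promoters are shown for *Ncmap*, *Cldn19* and *Gjb1*, whose RNA was the most restricted to a small set of glial cells, and for *Mag*. Each sequence runs 5′ to 3′ on the gene's strand from 250 bases before to 50 bases after an annotated start (RefSeq, GRCm38.p6). Capitals mark a Sox motif, ACAAAG or ACAATG, or its reverse complement. The *Ncmap* promoter (chr4:135398178-135398477, minus strand) and the *Cldn19* promoter (chr4:119255191-119255490, plus strand) had no match.
Ncmap: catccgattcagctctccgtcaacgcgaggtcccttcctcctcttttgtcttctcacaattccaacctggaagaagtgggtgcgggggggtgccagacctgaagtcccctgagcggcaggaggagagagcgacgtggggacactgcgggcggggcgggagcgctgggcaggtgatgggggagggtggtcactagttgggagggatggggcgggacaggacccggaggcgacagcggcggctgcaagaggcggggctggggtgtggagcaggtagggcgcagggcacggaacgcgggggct
Cldn19: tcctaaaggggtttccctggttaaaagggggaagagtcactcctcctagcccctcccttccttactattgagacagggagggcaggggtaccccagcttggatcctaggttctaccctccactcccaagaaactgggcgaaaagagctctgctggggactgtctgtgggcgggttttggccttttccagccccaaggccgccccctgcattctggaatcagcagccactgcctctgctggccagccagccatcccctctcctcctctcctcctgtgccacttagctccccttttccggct
The *Gjb1* promoter at the most downstream of its 4 starts (chrX:101383482-101383781, plus strand) had both motifs, on opposite strands. Of the 3 *Mag* promoters 2, which overlap, had ACAAAG on the other strand, and 1 of these is shown (chr7:30914814-30915113, minus strand).
Gjb1: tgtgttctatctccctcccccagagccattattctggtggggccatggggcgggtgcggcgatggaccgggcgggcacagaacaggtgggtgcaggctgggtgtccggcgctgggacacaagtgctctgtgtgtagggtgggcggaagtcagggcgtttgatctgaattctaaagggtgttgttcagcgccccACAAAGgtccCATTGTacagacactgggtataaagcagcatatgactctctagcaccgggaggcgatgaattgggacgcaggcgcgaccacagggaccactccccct
Mag: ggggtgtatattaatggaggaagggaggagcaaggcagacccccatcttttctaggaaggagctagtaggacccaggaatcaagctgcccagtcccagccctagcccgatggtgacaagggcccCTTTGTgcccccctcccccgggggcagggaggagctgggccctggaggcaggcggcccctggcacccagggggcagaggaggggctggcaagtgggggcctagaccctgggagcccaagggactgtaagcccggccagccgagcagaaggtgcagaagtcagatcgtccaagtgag
In all, promoters were searched for 7 of the 8 genes, *Mbp* being left out, with 17 promoters, of which 4 had a Sox motif. Of the 32851 mouse promoters of this length, 28.6% had either Sox motif, 18.7% ACAAAG and 12.6% ACAATG. The Egr motif GCGTGGGNG occurred in 1.90% of all promoters and in 0 of the 17. Such a match is a string of letters in a window and not a measured site.

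The matrices comprised 30777 droplets with between 39353313 and 113352559 unique molecular identifiers (UMIs) per library, and 21442 droplets were kept. Of these, 8469 were glia and 7023 neurons, chosen by 4 glial markers (among them *Ttyh1*, *Fabp7* and *Cryab*) and 4 neuronal ones, none of which is among the 8 genes. Glia had medians of 3525 to 12146.5 UMIs per cell and neurons 26701 to 108598. A list of 7 glial markers summed to between 7793 and 12762 CPM (UMIs of a gene per 1000000 UMIs of the class) in glia and between 31.02 and 157 CPM in neurons, and 7 neuronal markers to between 835 and 3635 CPM in glia and between 18357 and 23689 CPM in neurons. Libraries of the same round shared barcodes, up to 94 (the stellate with the sphenopalatine) in round 1 and 30 (the coeliac with pelvic_2) in round 2. Removal of the 244 kept droplets concerned left every member count of both comparisons with a test, given below, as it was. CPM are shares of all UMIs of a class in a library, so that more cells of a type and more RNA per cell cannot be told apart, and they were not divided by gene length, so that no order of levels between genes is read.

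Positions were read from the GENCODE M21 annotation of GRCm38. *Mbp* spans 110492 bases of chromosome 18, from 82475146 to 82585637 on the plus strand, with 14 coding transcripts that start at 10 sites and end at 8. *Pmp22* lies on chromosome 11 (63128982 to 63159547), *Mag* and *Prx* on chromosome 7 (30899176 to 30914873 and 27499324 to 27520214), and *Mal* on chromosome 2 (127633226 to 127656695). *Ncmap* and *Cldn19* both lie on chromosome 4 (135369576 to 135398227 and 119255414 to 119262438), and *Gjb1* on chromosome X (101376378 to 101385629). No other annotated gene overlapped any of the 8 on the same strand. The counts are given per gene and do not separate transcripts. This bears on *Mbp*, since its locus is also known for golli transcripts, which start far upstream and are made in some cells that form no myelin.

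In glia, *Mbp* was counted at 707 CPM in the stellate, 523 in the lumbar, 523 in the coeliac, 1740 in the sphenopalatine, 1944 in pelvic_1 and 1044 in pelvic_2. The pelvic and sphenopalatine libraries were thus above the 3 sympathetic ones, although the pelvic libraries themselves differed by a factor of 1.86 (mean 1494 ± 636 CPM, SD, n = 2). *Pmp22* followed the same division, with 854, 767 and 722 CPM in the stellate, the lumbar and the coeliac against 1127 in the sphenopalatine, 1515 in pelvic_1 and 1229 in pelvic_2. *Mal* did not, with 417, 836 and 810 CPM in the stellate, the lumbar and the coeliac, 719 in the sphenopalatine, 625 in pelvic_1 and 1156 in pelvic_2. For *Mal* the pelvic libraries stood on both sides of the lumbar and the coeliac, and pelvic_1 was 0.54 times pelvic_2.

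The division was widest for *Cldn19*, *Ncmap* and *Gjb1*. *Cldn19* was at 2.20 CPM in the stellate, 5.25 in the lumbar and 4.55 in the coeliac, against 19.8 in the sphenopalatine, 29.9 in pelvic_1 and 29.4 in pelvic_2. *Ncmap* was at 3.43, 8.54 and 4.65 CPM in the same 3 sympathetic libraries, against 23.2, 38.0 and 40.3. The pelvic libraries differed by factors of only 1.02 for *Cldn19* and 0.94 for *Ncmap*, and their 95% Poisson intervals overlapped, as did those of the lumbar and the coeliac for *Cldn19* and of the coeliac and the stellate for *Ncmap*. *Gjb1* rested on few UMIs, 2 in the stellate, 2 in the lumbar, 0 in the coeliac, 17 in the sphenopalatine, 18 in pelvic_1 and 11 in pelvic_2. The 3 counts that a 0 allows are 0.290 CPM in the coeliac, against 2.07, 2.10 and 1.52 CPM in the latter 3 libraries, whose intervals overlapped. These intervals and floors cover counting error only.

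*Prx* and *Mag* ranged less widely than *Cldn19* and *Ncmap*. *Prx* was at 10.5 CPM in the stellate, 15.5 in the lumbar, 16.3 in the coeliac, 30.3 in the sphenopalatine, 49.9 in pelvic_1 and 45.02 in pelvic_2. The pelvic libraries were highest and overlapped in their intervals, as did the lumbar and the coeliac. *Mag* was at 9.34 CPM in the stellate, 20.5 in the lumbar, 24.8 in the coeliac, 24.1 in the sphenopalatine, 32.2 in pelvic_1 and 42.7 in pelvic_2. Its lumbar, coeliac and sphenopalatine levels had overlapping intervals, and the stellate was lowest, as it was for *Prx*, *Ncmap*, *Mal* and *Cldn19*.

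**Figure D1:**
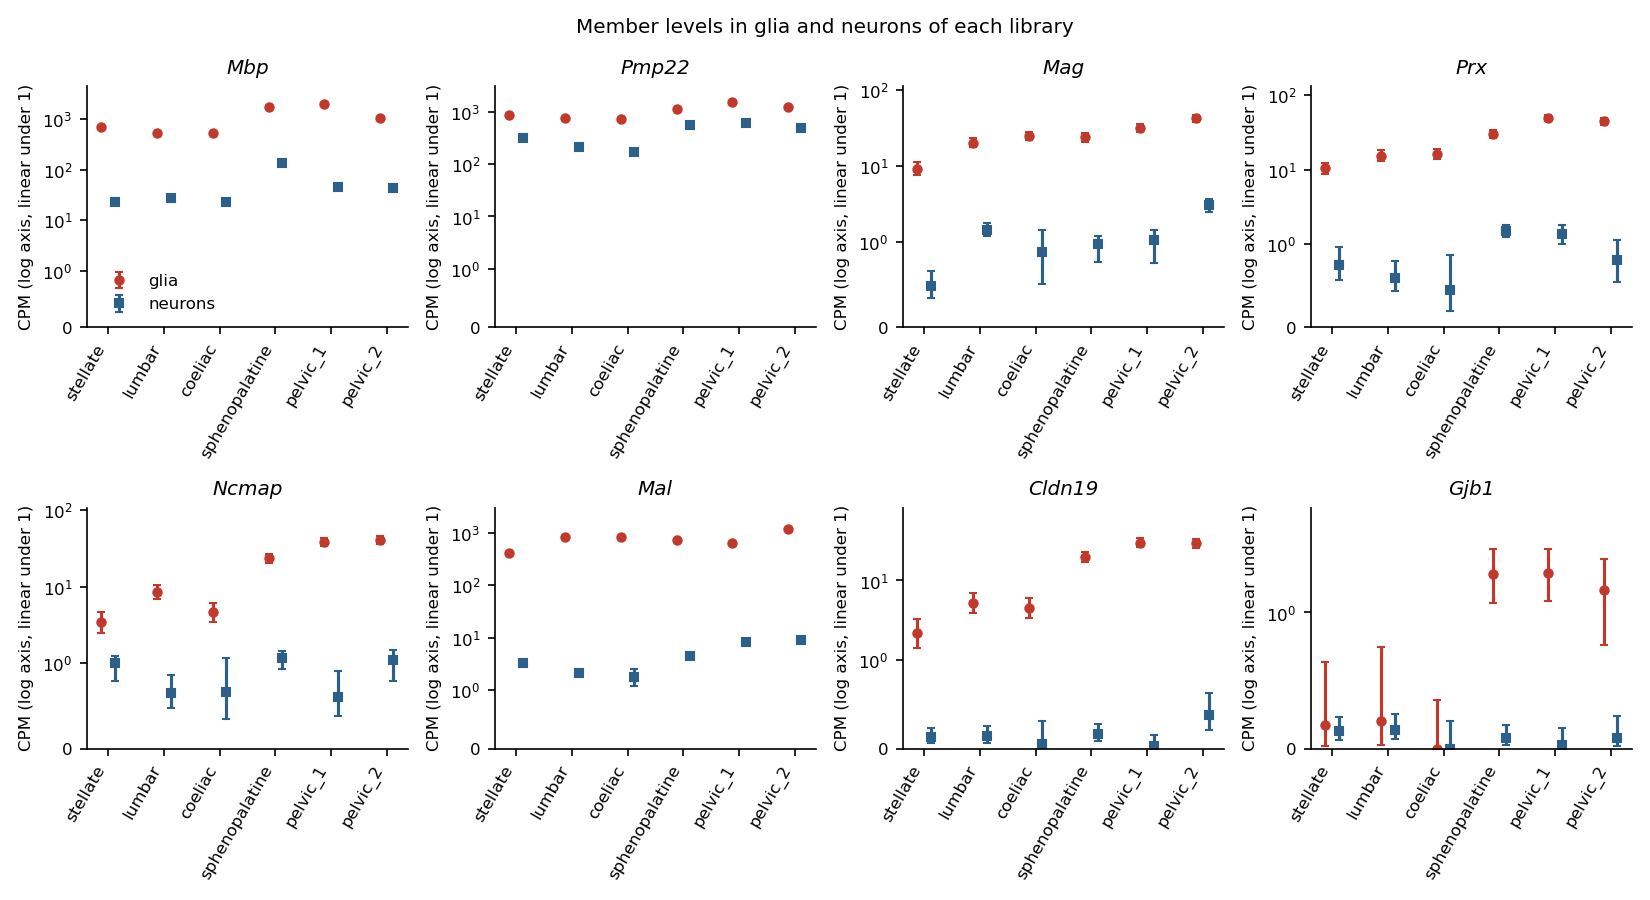
Level of each gene in CPM (log axis, linear under 1) in glia (red circles) and neurons (blue squares) of the 6 libraries, with 95% Poisson intervals. *Cldn19*, *Ncmap* and *Gjb1* are higher in glia of the sphenopalatine and both pelvic libraries than in those of the stellate, the lumbar and the coeliac, while *Pmp22* in neurons comes within 1.99 to 4.18 times of its level in glia.

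Within round 1, 8 of 8 genes were higher in pelvic_1 glia than in stellate glia and 7 of 8 than in sphenopalatine glia, *Mal* being the exception. Within round 2, 8 of 8 were higher in pelvic_2 than in the coeliac and 8 of 8 than in the lumbar. The ratio of pelvic_1 to the stellate was 13.6 for *Cldn19*, 11.1 for *Ncmap*, 4.76 for *Prx*, 3.44 for *Mag*, 2.75 for *Mbp*, 1.77 for *Pmp22* and 1.50 for *Mal*. The ratio of pelvic_1 to the sphenopalatine lay between 0.87 (*Mal*) and 1.65 (*Prx*). Sphenopalatine glia in turn had 8 of 8 genes above stellate glia, with a ratio of 9.0 for *Cldn19*. With 1 library for each of these ganglia, the ratios have no replicate check.

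Whether the pelvic ganglion differed from the other 4 was tested on glial counts summed per library, 2 pelvic against 4 others with round as a covariate. By edgeR's quasi-likelihood test with Benjamini-Hochberg adjustment, 0 of the 8 genes passed 0.05, in a comparison that called 0.029% of 13814 genes. All 8 differences were positive, and an unadjusted p under 0.05 was found for 6 of the 8 as for 1392 (10.1%) of all genes. On the log2 scale the difference of pelvic minus other glia was 2.08 ± 0.62 (SE) for *Ncmap*, 2.03 ± 0.67 for *Cldn19*, 1.91 ± 1.03 for *Gjb1* and 1.40 ± 0.35 for *Prx*. It was 0.94 ± 0.33 for *Mag*, 0.83 ± 0.33 for *Mbp*, 0.67 ± 0.15 for *Pmp22* and 0.32 ± 0.23 for *Mal*. The adjusted p lay between 0.22 (*Pmp22*) and 0.73 (*Mal*), and residual degrees of freedom were 3. DESeq2 called 2 of the 8, *Pmp22* (adjusted p = 0.0051) and *Prx* (0.028), and 169 genes in all. The call depended on the sphenopalatine library, without which edgeR called 8 of the 8 and 425 genes in all. Without any one of the other 5 libraries it called 0 of the 8. Without the sphenopalatine the log2 difference was 1.19 for *Mbp*, 2.92 for *Ncmap* and 2.99 for *Cldn19*.

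**Figure D2:**
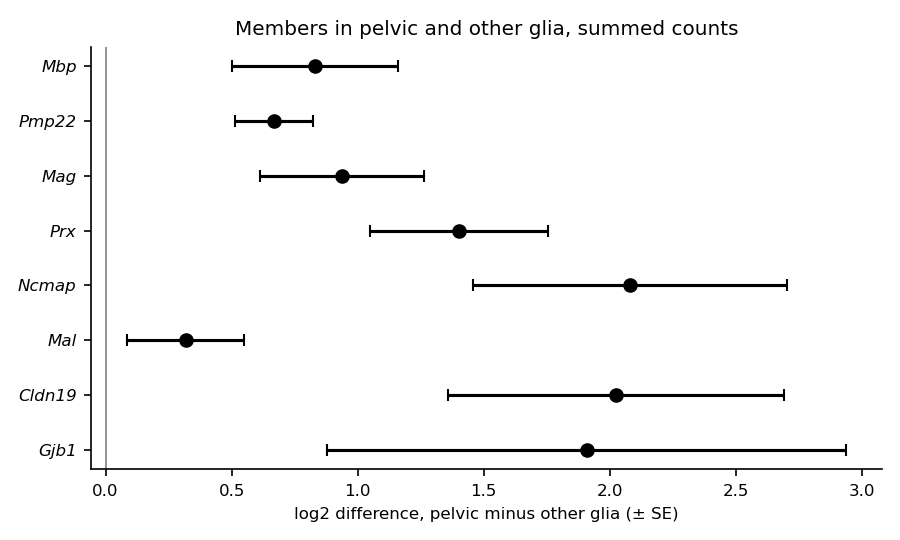
Log2 difference of pelvic minus other glia for each gene (points, bars give the SE) from the edgeR fit over 2 pelvic and 4 other libraries with round as a covariate. The 8 points lie above 0, between 0.32 and 2.08, and none passed an adjusted p of 0.05.

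To compare shares of cells at equal depth, every cell was thinned to 2000 UMIs. Among glia, between 56.8% (lumbar) and 88.6% (sphenopalatine) then had a UMI of *Mbp*, between 73.5% (coeliac) and 80.8% (pelvic_1) one of *Pmp22*, and between 54.0% (stellate) and 87.5% (pelvic_2) one of *Mal*. *Mag* was found in 1.61% (stellate) to 5.79% (pelvic_2) of glia and *Prx* in 1.78% (stellate) to 6.18% (pelvic_1). *Cldn19* was found in 0.21% (stellate) to 2.84% (pelvic_1), *Ncmap* in 0.13% (coeliac) to 1.47% (pelvic_1) and *Gjb1* in 0% to 0.28% (pelvic_1). For comparison, 506 endothelial-like cells, with a median of 8439.5 to 25481.5 UMIs before thinning, were set beside glia. Their shares were 1.38% for *Mbp*, 10.5% for *Pmp22*, 0.40% for *Mal* and 1.19% for *Prx*. Whether these cells make some of this RNA themselves was not tested. For *Ncmap* 0.59% (95% Wilson interval 0.20 to 1.73%, 3 cells) of endothelial-like cells had a UMI against 0.71% (0.55 to 0.91%) of all glia. With cells pooled over libraries, the interval of glia lay within that of endothelial-like cells, and above that of neurons, at 0.10% (0.048 to 0.21%). These pooled intervals treat cells as independent and leave out the spread between libraries. Over libraries the share was 0.13 to 1.47% in glia, 0 to 0.27% in neurons and 0 to 3.33% in endothelial-like cells. *Cldn19* gave 0.20% (0.035 to 1.11%) against 1.23% (1.01 to 1.49%), and *Mag* and *Gjb1* 0 of 506 cells, against 3.53% and 0.094%. Before thinning, stellate glia had 0.0134 UMIs of *Ncmap* per cell, less than the 0.0341 of the deeper endothelial-like cells of that library. As shares of all UMIs the levels were 3.43 CPM in these glia and 3.86 CPM in these endothelial-like cells. Unthinned, 82.9 to 98.3% of glia had a UMI of *Mbp* and 0.48 to 2.11% one of *Ncmap*.

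The rare genes occurred together. Of the 60 thinned glial cells with *Ncmap*, 76.7% also had *Cldn19*, 73.3% *Prx*, 51.7% *Mag* and 11.7% *Gjb1*, against 0.69%, 3.07%, 3.19% and 0.012% of glia without *Ncmap*. *Mal* was nearly as frequent in both, with 80.0% against 67.7%. Of the genes found in most glia, the 5% of glial cells richest in a gene held 23.6 to 34.4% of its thinned UMIs for *Mbp*, 18.4 to 34.7% for *Pmp22* and 16.5 to 20.4% for *Mal*.

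Glia were then clustered with the 8 genes left out of the variable genes, which gave 14 clusters. One of these, of 119 cells or 1.41% of glia, was called myelinating Schwann-like, since 9 of 10 myelinating Schwann cell markers were raised over 2-fold and 4 (*Pmp2*, *Pllp*, *Gldn* and *Fa2h*) were among its 10 leading genes. *Pou3f1*, a transcription factor of promyelinating Schwann cells, *Emid1*, *Dusp15*, *Slc36a2*, *Ncmap* and *Cldn19* were the others. Its median depth was 5907 UMIs per cell and 0.84% of its cells were called as simulated doublets. The values of the 8 genes in it are a description, since co-varying genes formed the cluster.

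This cluster held 93.8% of all glial UMIs of *Ncmap*, 90.0% of *Gjb1* and 86.5% of *Cldn19*, though only 1.62% of all glial UMIs. Its part was 44.1% for *Prx*, 28.2% for *Mag*, 22.8% for *Mbp*, 21.9% for *Pmp22* and 4.29% for *Mal*. *Mbp* was at 14458 CPM in the cluster and 808 CPM in the rest of glia, and *Pmp22* at 13561 and 799 CPM. For *Ncmap* the levels were 1021 and 1.12 CPM, for *Cldn19* 727 and 1.87 CPM, and for *Gjb1* 50.0 and 0.092 CPM. *Prx* was at 706 and 14.8 CPM, *Mag* at 421 and 17.7 CPM, and *Mal* at 1948 and 717 CPM, a ratio of 2.72. Pooled over libraries, the 8 genes thus fell into those largely confined to these cells and those spread over glia, with *Prx* and *Mag* between. By library the cluster's part was 71.8 to 98.6% for *Ncmap*, 68.0 to 94.8% for *Cldn19* and 50 to 100% for *Gjb1*. It was 12.6 to 52.1% for *Prx* and 10.5 to 45.7% for *Mag*. These overlapped the ranges of *Mbp* (5.25 to 36.4%) and *Pmp22* (5.38 to 38.3%).

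The cells of the cluster made up 0.275% of glia in the stellate (8 cells), 0.809% in the lumbar (7), 0.631% in the coeliac (5), 1.73% in the sphenopalatine (27), 3.29% in pelvic_1 (58) and 2.46% in pelvic_2 (14). The Wilson intervals of the 2 pelvic libraries overlapped, 2.55 to 4.23% and 1.47 to 4.08%, and that of pelvic_2 also overlapped those of the sphenopalatine (1.19 to 2.5%), the lumbar (0.393 to 1.66%) and, barely, the coeliac (up to 1.47%). At clustering resolutions 0.25 and 1 the cluster had 44 cells, and its shares were 0.103% in the stellate, 0.347% in the lumbar, 0.253% in the coeliac, 0.703% in the sphenopalatine, 1.02% in pelvic_1 and 1.23% in pelvic_2, at most 0.5 times the shares above, with the order of the pelvic pair turned. All 44 cells were among the 119. They held 89.8% of all glial UMIs of *Ncmap*, 84% of *Gjb1*, 71.0% of *Cldn19*, 20.2% of *Mbp* and 20.5% of *Pmp22*. Most of the RNA that the cluster held of these genes was thus in these 44 cells, and its levels are averages over unlike cells. Unthinned, 47.1% of the 119 cells had a UMI of *Ncmap*. Within the cluster of 119 cells, *Ncmap* was at 766 CPM in the stellate, 1119 in the lumbar, 747 in the coeliac, 1057 in the sphenopalatine, 887 in pelvic_1 and 1286 in pelvic_2, a spread of less than 2-fold. *Mbp* within it was at 11525, 9263, 6195, 18284, 17444 and 11421 CPM in the same order.

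**Figure D3:**
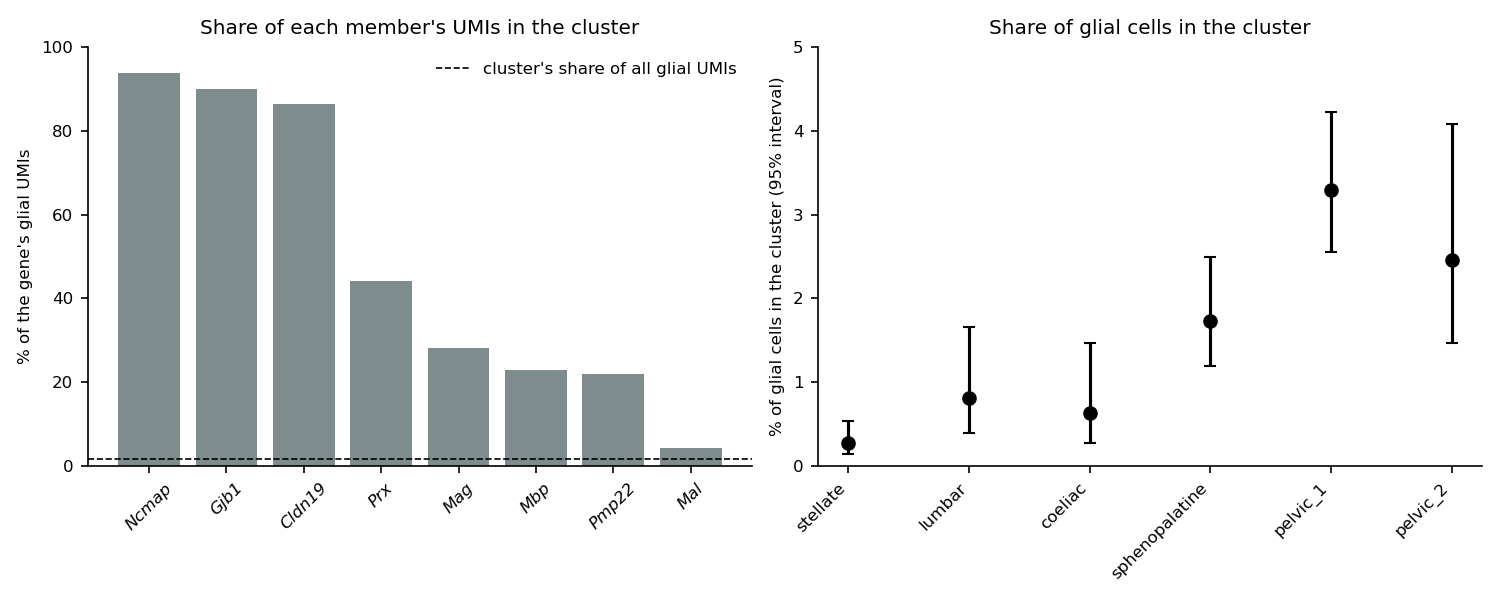
Left, percentage of each gene's glial UMIs found in the myelinating Schwann-like cluster (bars), with the cluster's 1.62% share of all glial UMIs as a dashed line. Right, percentage of glial cells in the cluster in each library with 95% Wilson intervals, from 0.275% in the stellate to 3.29% in pelvic_1.

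Outside the cluster, *Mbp* was at 672 CPM in the stellate, 459 in the lumbar, 490 in the coeliac, 1412 in the sphenopalatine, 1289 in pelvic_1 and 713 in pelvic_2. The sphenopalatine and both pelvic libraries thus stayed above the sympathetic libraries without these cells. Pelvic_2 was close to the stellate, of the other round, and further above the lumbar and the coeliac, of its own round. *Pmp22* outside it lay between 687 (coeliac) and 974 CPM (pelvic_1). Without the cluster, the log2 difference of pelvic minus other glia was 0.44 for *Mbp*, 0.24 for *Pmp22*, 0.38 for *Mag*, 0.27 for *Mal* and 0.33 for *Ncmap*. It remained 1.05 for *Prx*, at 24.9 and 22.7 CPM in pelvic_1 and pelvic_2 against 9.19 to 16.4 CPM elsewhere, and 1.33 for *Cldn19*, and 0 of 7 genes tested passed 0.05.

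Other clusters differed in the spread genes. Cluster 1, of 3817 cells led by *Hes5* and *Rlbp1*, and cluster 2, of 2054 cells led by *Fgl2*, *Kcna1* and *Scn7a*, had too few leading markers to be named. *Mag* was at 35.6 CPM in cluster 2 and 9.11 CPM in cluster 1, and *Prx* at 28.9 and 7.70 CPM, both higher in cluster 2 in 6 of 6 libraries. *Mbp* was at 1263 and 707 CPM, *Mal* at 910 and 681 CPM and *Pmp22* at 933 and 747 CPM, each also higher in cluster 2 in 6 of 6 libraries. In the stellate, for instance, *Mbp* was at 1306 CPM in cluster 2 and 604 CPM in cluster 1. *Ncmap* (0.98 and 0.32 CPM) and *Cldn19* (3.68 and 0.77 CPM) were higher in cluster 2 in 5 of 6 libraries, and *Gjb1* in 1. The clusters were formed over all libraries together, so that these counts of libraries are a description and no replication. A cluster of 80 cells led by interferon genes such as *Ifit1* had *Mbp* at 1068 CPM and *Mag* at 13.5 CPM, and 3 clusters led by genes of the cell cycle had *Mbp* at 592 to 817 CPM.

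The genes most like the 8 in their pattern over 42 profiles of a glial cluster in a library were found by the correlation of log2(CPM + 1) with the mean of the standardized values of the 8, among 13635 genes. Among the 10 nearest other genes were *Cuedc2* (r = 0.92), *Fa2h* (0.90), *Pllp* (0.89), *Slc36a2* (0.89), *B230206H07Rik* (0.88), *Serpinb6b* (0.87), *Gm48697* (0.87), *Gm16168* (0.87) and *Piwil1* (0.87). *Fa2h* encodes an enzyme of myelin lipids. These profiles share libraries and depth and the correlations are a description. The 8 genes, each part of that mean, ran from 0.95 for *Pmp22* to 0.83 for *Ncmap*, and were 0.55 for *Mal*.

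In neurons, where RNA of these genes may also be free RNA of glia, *Mbp* was at 22.6 CPM in the stellate, 27.4 in the lumbar, 22.7 in the coeliac, 133 in the sphenopalatine, 46.1 in pelvic_1 and 43.7 in pelvic_2. Sphenopalatine neurons were highest, and the 3 sympathetic libraries lowest. *Pmp22* was at 309, 215 and 173 CPM in neurons of the stellate, the lumbar and the coeliac, and at 566, 612 and 480 CPM in those of the sphenopalatine, pelvic_1 and pelvic_2. *Mal* was at 3.36, 2.16, 1.78, 4.44, 8.23 and 8.88 CPM in that order. The other 5 genes were at 3.07 CPM or less in neurons of every library.

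Tested over the 6 libraries with each library as a block, glia exceeded neurons for 7 of the 7 genes that passed the filter on low counts, in a comparison that called 75.1% of 14036 genes, with 37.4% higher in glia and 37.7% higher in neurons. The log2 difference of glia minus neurons (± SE, n = 6 libraries, edgeR's quasi-likelihood test) was 7.36 ± 0.42 for *Mal* (adjusted p = 3.1e-06), 6.14 ± 0.60 for *Cldn19*, 4.70 ± 0.27 for *Prx*, 4.48 ± 0.23 for *Mbp*, 4.24 ± 0.22 for *Mag* and 3.94 ± 0.56 for *Ncmap*. It was smallest for *Pmp22*, 1.41 ± 0.14 (adjusted p = 4.7e-05), which was higher in glia in 6 of 6 libraries by 1.99 to 4.18 times. *Gjb1* did not pass the filter. The glia minus neurons difference did not pass the test of a change between rounds for any of the 7 (11.2% of all genes did, 2.59% larger and 8.58% smaller in round 2), the largest being 1.18 ± 0.54 for *Mal* (adjusted p = 0.18). Apart from the pelvic, the rounds held different ganglia, so that this test cannot tell round from ganglion. On simulated counts it recovered 11.9% of genes changed by 1 log2 unit, so that a change of that size could be missed. With no filter on low counts, 8 of 8 genes were called in the comparison of glia with neurons. That fit called 12176 of 24694 genes in all, 5848 of them higher in glia.

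Neurons held more UMIs in all than glia, and per droplet the order of *Pmp22* was the other way round. It was counted 9.02 times per stellate neuron, 16.7 times in the lumbar, 13.1 in the coeliac, 22.7 in the sphenopalatine, 25.2 in pelvic_1 and 48.6 in pelvic_2. Glia had 3.33, 8.62, 9.41, 5.92, 7.38 and 15.6 UMIs of it in the same order, so that neurons exceeded glia by 1.39 to 3.83 times in 6 of 6 libraries. Endothelial-like cells of the same libraries had 0.580 to 0.923 UMIs of *Pmp22* and fibroblast-like cells 1.74 to 5.43. *Mbp* was counted 0.659 times per neuron in the stellate, 2.13 in the lumbar, 1.73 in the coeliac, 5.32 in the sphenopalatine, 1.89 in pelvic_1 and 4.43 in pelvic_2. Endothelial-like cells had 0.033 to 0.210 UMIs of *Mbp*, fibroblast-like cells 0.076 to 0.504 and macrophage-like cells 0.123 to 0.471. Per droplet, neurons were thus above each of these classes in every library. As shares of all UMIs, ranges over the libraries were compared. *Mbp* in neurons (22.6 to 133 CPM) lay above the range of endothelial-like cells (1.34 to 16.7 CPM) only. The ranges of fibroblast-like (3.47 to 54.5 CPM) and macrophage-like cells (10.0 to 32.0 CPM) overlapped that of neurons. Within a library the order went both ways. Neurons were above fibroblast-like cells in the lumbar (27.4 against 3.47 CPM) and below them in pelvic_1 (46.1 against 54.5 CPM). They were above macrophage-like cells in pelvic_2 (43.7 against 10.0 CPM) and below them in the coeliac (22.7 against 32.0 CPM).

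*Mal* in neurons was nearer to the other classes, at 0.098 to 0.899 UMIs per neuron against 0 to 0.133 in endothelial-like and 0.058 to 0.141 in fibroblast-like cells. *Prx* was at 0.0217 to 0.0817 UMIs per neuron and 0.033 to 0.148 per endothelial-like cell, while fibroblast-like cells had 0.073 to 0.320. Fibroblast-like cells had *Prx* at 12.5 to 19.6 CPM, of the order of the stellate, lumbar and coeliac glia. *Mag* was at 6.26 to 17.1 CPM in macrophage-like cells, on 2 to 23 UMIs per library, above neurons and, except in the stellate, below the glia of the same library. *Gjb1* had 0 UMIs in fibroblast-like and macrophage-like cells.

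**Figure D4:**
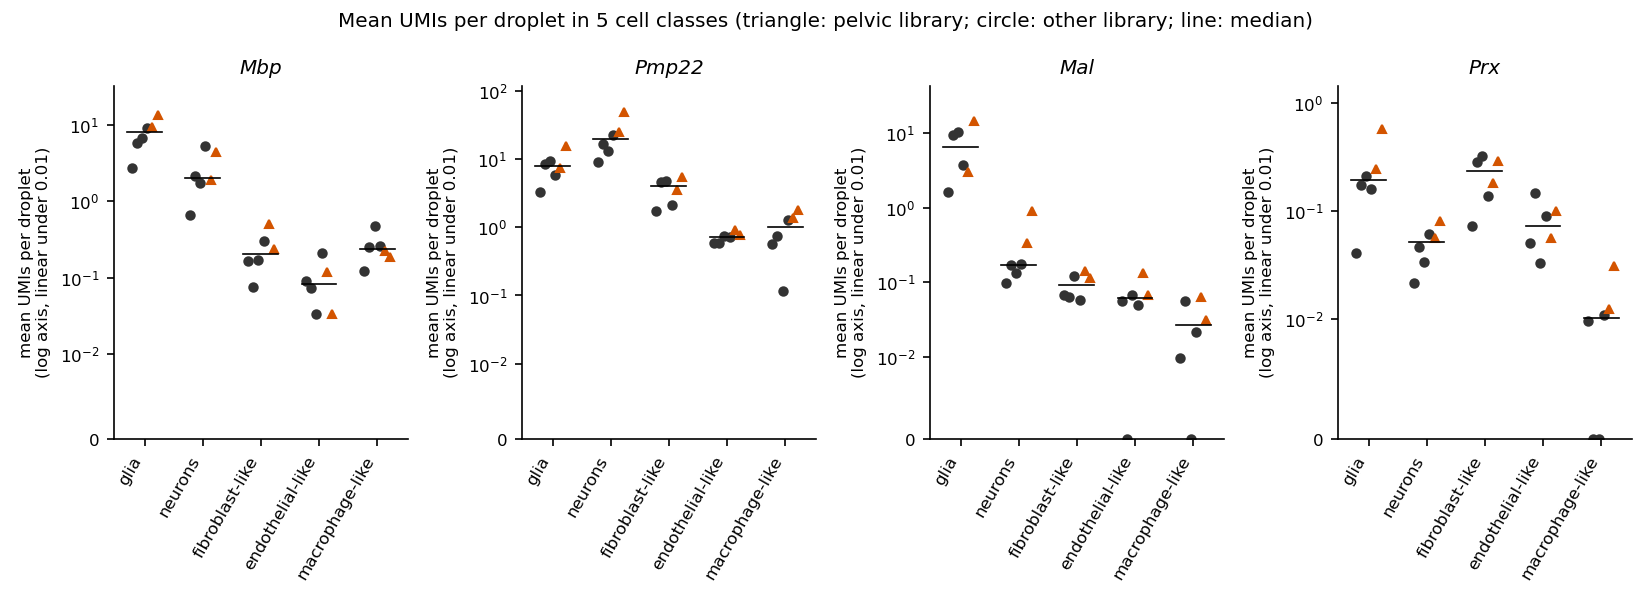
Mean UMIs per droplet of *Mbp*, *Pmp22*, *Mal* and *Prx* (log axis, linear under 0.01) in 5 cell classes, 1 point per library (triangles pelvic, circles other ganglia) with the median as a line. *Pmp22* is highest in neurons, *Mbp* in neurons lies between glia and the other classes, and *Mal* is high in glia and low in the other 4 classes.

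The composition of the 8 genes' RNA was compared between neurons and glia relative to *Mal*. The ratio of *Mbp* to *Mal* was higher in neurons than in glia by 3.97 times in the stellate, 20.3 in the lumbar, 19.8 in the coeliac, 12.4 in the sphenopalatine, 1.801 in pelvic_1 and 5.45 in pelvic_2 (median 8.92). For *Pmp22* to *Mal* this factor was 44.9, 108, 109, 81.5, 30.7 and 50.8 in the same order. For *Mag* the factor was 2.52 to 27.7 (median 7.98) and for *Prx* 2.08 to 14.8 (median 8.49), near that of *Mbp*, on 16 to 114 and 8 to 115 neuronal UMIs per library. It was 1.20 to 65.3 for *Ncmap* and 0.069 to 10.2 for *Cldn19*, on 12 to 88 and 1 to 14 neuronal UMIs. The factors share *Mal* as their reference, and the part of free glial RNA in them was not tested. Without simulated doublets the median for *Mbp* was 18.7. It was 12.4 with the stellate or either pelvic library left out, and 5.45 with the sphenopalatine, the coeliac or the lumbar left out.

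Neurons without a single UMI of the 4 glial markers made up 17.9 (sphenopalatine) to 42.6% (lumbar) of neurons. Their *Mbp* was at 18.4 CPM in the stellate, 25.3 in the lumbar, 22.8 in the coeliac, 126 in the sphenopalatine, 36.9 in pelvic_1 and 31.3 in pelvic_2, and over the 6 libraries it was 0.72 to 1.00 times the level of all neurons. *Pmp22* in them was 0.90 to 1.08 times the level of all neurons. *Mal*, in contrast, was 0.096 to 0.38 times. These neurons were picked after values had been seen, and the part of free glial RNA in their levels was not tested. Whether *Mbp* in these neurons is of the myelin or the golli transcripts was not tested.

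In the pelvic libraries, the only ones where both kinds reached a minimum number of cells, neurons were also split by transmitter. This split was chosen after values had been seen, and took neurons with at least 2 UMIs of *Th*, the enzyme of noradrenaline synthesis, and none of *Chat*, the enzyme of acetylcholine synthesis, or the reverse. In pelvic_1, *Mbp* was at 53.6 CPM (95% Poisson interval 50.3 to 57.1) in 435 *Chat* neurons and 17.4 CPM (13.9 to 21.4) in 124 *Th* neurons, a ratio of 3.09. In pelvic_2 it was at 46.3 CPM (43.8 to 49.0) in 218 *Chat* neurons and 18.5 CPM (14.3 to 23.4) in 32 *Th* neurons, a ratio of 2.51. *Pmp22* was at 641 and 178 CPM in pelvic_1 and at 499 and 129 CPM in pelvic_2, ratios of 3.61 and 3.88. In *Th* neurons of other ganglia, *Mbp* and *Pmp22* were at 22.7 and 302 CPM in the stellate, 26.8 and 180 CPM in the lumbar and 22.6 and 173 CPM in the coeliac. The pelvic_2 interval for *Mbp* covered the stellate and coeliac values, that of pelvic_1 for *Pmp22* covered the lumbar and coeliac values, and some of these libraries differ in round. The pelvic_1 interval for *Mbp* and the pelvic_2 interval for *Pmp22* (117 to 141 CPM) lay below the stellate, lumbar and coeliac values alike. The 468 *Chat* neurons of the sphenopalatine were at 104 CPM for *Mbp*, below the 133 CPM of all its neurons, and 673 CPM for *Pmp22*.

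The 4 glial markers moved in the same direction, at 156 and 78.4 CPM in *Chat* and *Th* neurons of pelvic_1 and at 85.6 and 58.7 CPM in those of pelvic_2, as did simulated doublets (13.3 and 6.45%, 11.01 and 6.25%). In neurons with no UMI of these markers the ratio of *Chat* to *Th* neurons was 2.90 and 1.89 for *Mbp* and 3.18 and 3.64 for *Pmp22* in pelvic_1 and pelvic_2, from 41 and 7 *Th* neurons. *Mal* was at 9.49 and 3.79 CPM in *Chat* and *Th* neurons of pelvic_1, a ratio of 2.5. In those of pelvic_2 it was at 8.42 and 4.13 CPM. With no UMI of the glial markers, it was at 1.62 CPM in 127 *Chat* and 1.41 CPM in 41 *Th* neurons of pelvic_1, a ratio of 1.15. This ratio rests on few counts, since all 273 neurons of pelvic_1 without glial UMIs held 17 UMIs of *Mal*. The 7 such *Th* neurons of pelvic_2 had *Mal* at 0 CPM, which gives no ratio. The part of glial RNA and doublets in these differences was not tested. With 2 libraries no test of these differences was made.

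**Figure D5:**
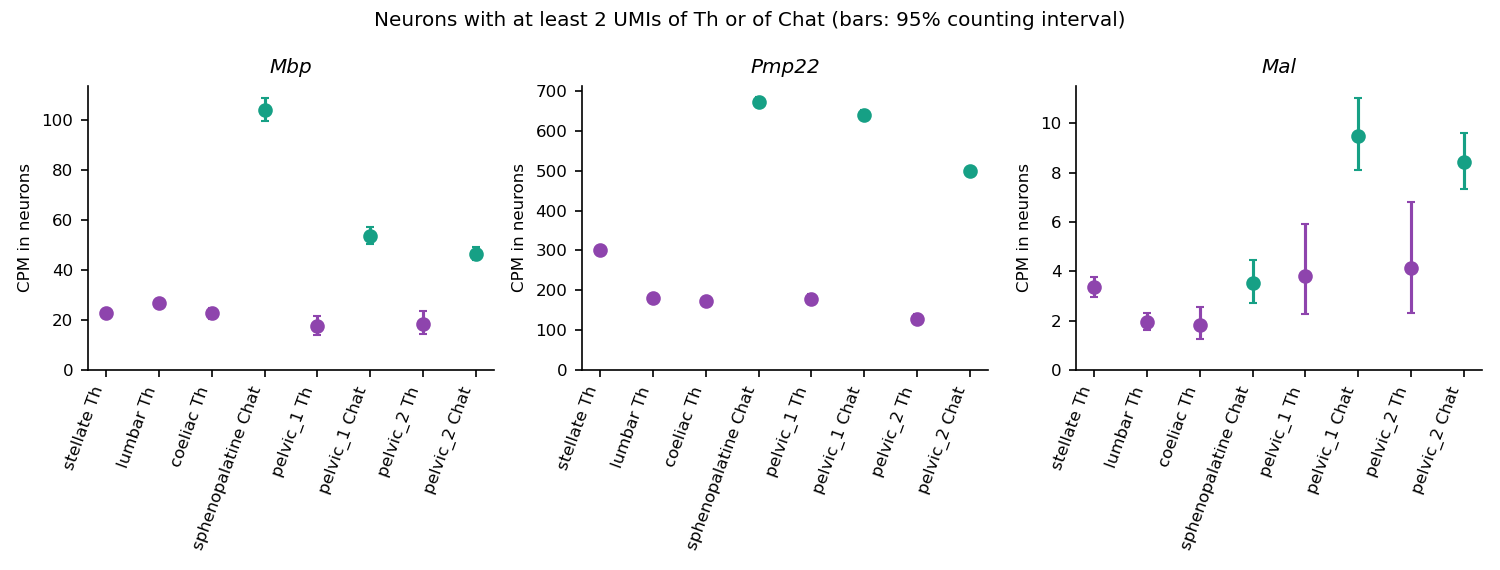
Level of *Mbp*, *Pmp22* and *Mal* in CPM in neurons with *Th* (purple) or *Chat* (green) of each library, with 95% Poisson intervals, for the sets shown. *Mbp* is at 46.3 and 53.6 CPM in pelvic *Chat* neurons and at 17.4 and 18.5 CPM in pelvic *Th* neurons.

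Other genes of the myelin programme were taken from 5 lists. Of 13 genes of compact myelin and Schwann membrane tested in glia against neurons, 9 were higher in glia, 1 lower and 3 not called (median log2 difference 3.09, against -0.0068 over all genes tested). The largest were *Gjc3*, another connexin of glia (7.29), and *Dhh*, the hedgehog ligand of Schwann cells (7.21), while *Nfasc*, the neurofascin of axon and glia, was lower (-3.39). The genes lower in glia and *Drp2* are named outside the rule, after their values were seen. Of 16 regulators of myelination 14 were higher in glia, 1 (*Adam22*, -1.53) lower and 1 not called, with *Sox10* (6.79), the transcription factor of glial identity, *Erbb3* (6.60), the neuregulin receptor, and *Pou3f1* (6.58) the largest. All 12 genes of the periaxin complex and basal lamina receptors were higher in glia, led by the laminin chain *Lama2* (6.35), the integrin *Itgb4* (5.09) and the laminin chain *Lamc1* (4.17), and the partner of periaxin, *Drp2*, differed by 0.68 ± 0.26.

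Of 19 genes of lipid and cholesterol synthesis 13 were higher in glia, 3 lower (*Fdft1* and *Fdps* among them) and 3 not called, with *Aspa* (7.31), *Fa2h* (4.71) and *Ugt8a* (4.06), which makes galactolipids of myelin, the largest. Of 10 negative regulators and genes of immature Schwann cells 4 were higher, 4 lower (*Gap43* included) and 2 not called, near the 37.4% higher and 37.7% lower of all genes tested. The largest differences of that list were *Sox2* (6.84), *Notch1* (6.06) and *Egr1* (4.21), and *Gap43*, *Ngfr*, *L1cam* and *Ncam1*, which neurons also express, were lower in glia. *Gap43* was among the markers that chose the cells, so that its value is no result. Between pelvic and other glia 0 genes of the 5 lists passed 0.05 by edgeR. The median log2 difference was 0.35 for compact myelin, against 0.0043 over all genes tested, and 0.021 to 0.16 for the other 4 lists.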

How the data were processed

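The authors called cells and counted UMIs with Cell Ranger 6.0.1 on mm10, per the submitters' processing notes and the paper's methods, and the deposited counts are whole UMIs per gene and droplet without normalization. A droplet was kept if more than 1500 but fewer than 11000 genes were detected and mitochondrial UMIs stayed below 15%. Counts were normalized with sctransform 0.4.2 (R 4.3.3) to choose neurons (mean of 4 markers above 3, glial mean below 1.25) and glia (glial mean at or above 1.25, the valley of the histogram), and 518 cells lay within 0.2 of the glial value. *Mal*, a glial marker of the study, was left out of that choice. Other classes needed at least 3 of 6 markers of a single list. Doublets were simulated (over 50% of 30 neighbours, 3020 cells) and removed only as an alternative.

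CPM and UMIs per cell were computed from sums per library and class, with exact Poisson intervals, and shares with Wilson intervals, at 95%. Sums were tested with edgeR 4.0.16 (TMM, filterByExpr, quasi-likelihood test, Benjamini-Hochberg adjustment over all genes tested, threshold 0.05), with DESeq2 1.42.0 as an alternative. The SE of an edgeR log2 difference was derived from the test, as its absolute value divided by the square root of the F statistic. P-values measure the spread between these libraries, which may be technical, and the fit with a single library per other ganglion counts differences between those ganglia as spread. On simulated counts, 39.0% of genes changed by 1 log2 unit and 96.9% of those changed by 2 were recovered for the pelvic comparison. For the test between rounds these were 11.9% and 82.6%. Apart from these changes, each gene was simulated with the same mean share in every library and a fixed dispersion of 0.05. Differences between the other ganglia were thus absent, and these percentages do not give the recovery in the real fits. Glia were clustered by Leiden on 2000 variable genes scaled within library, 30 components, 20 neighbours and resolution 0.5.

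The 8 genes and the 5 lists were chosen with earlier results of these data known. The text names the 8 genes in full, the 3 largest called differences of each list and the 10 genes most like the 8. A few genes that this rule names are not reported here. The split by *Th* and *Chat*, neurons without glial UMIs, the removal of shared barcodes and the levels with each library left out were added after values had been seen. Glia and neurons of a library come from the same preparation, which is the block of that comparison. No other replicate number pairs samples.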

Additional observations from a re-analysis of the deposited data

Results flagged for a closer look

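Droplets with 1500 genes or fewer that passed the mitochondrial limit of 15%, 6358 in all with 13310124 UMIs, entered no comparison, and RNA of 7 of the 8 genes was counted in them above the 0.225 CPM that 3 counts would make. Over the 6 libraries *Mbp* was at 420 CPM (57.9 to 626 by library), *Pmp22* at 456 CPM (249 to 598) and *Mal* at 205 CPM (55.5 to 313). *Mag* was at 5.26 CPM, *Prx* at 5.79 CPM, *Cldn19* at 1.35 CPM and *Ncmap* at 0.30 CPM, on 70, 77, 18 and 4 UMIs, and *Gjb1* had 0 UMIs. No group had the 4 samples needed to look for a sample that stands apart.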

How the results depend on the processing

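In glia against neurons, 7 of 7 genes (8 of 8 with no filter) were called under all 15 alternatives, with 9301 genes called in all without the replicate block of the library against 10539 with it, a block that changed no call of the 8. In pelvic against other glia, 7 genes were called with the glial threshold 0.5 higher or simulated doublets removed, 169 with DESeq2 (2 of the 8 genes), 184 with no filter on low counts (1 of the 8, *Prx*) and 0 to 425 with each library left out (0 to 8 of the 8), against 4 and 0. No paired analysis was possible for pelvic against other glia beyond the round, because the groups share a single replicate number. The test between rounds called 628 genes with cells selected on log counts, 370 with the higher glial threshold, 475 without simulated doublets, 774 with no filter and 0 to 1921 with each library left out (0 to 1 of the 8, *Mal* without pelvic_2), against 1568. Its log2 value changed sign for *Ncmap* (main -0.06) with *Mal* among the markers (0.029), the higher threshold (0.26), doublets removed (0.047), RLE size factors (0.0061) and no filter (0.11). With each library left out it ran from -1.04 to 0.84 for *Ncmap*, -0.78 to 0.049 for *Mbp* and -1.96 to 0.065 for *Cldn19*. The ratio of *Mbp* to *Mal* in neurons over glia, 8.92, was 18.7 without simulated doublets and 5.45 to 12.4 with each library left out. The mean share of the myelinating cluster, 1.53% of glia, was 0.609% at resolutions 0.25 and 1 (44 cells) and 1.02 to 1.36% with a pelvic library left out. The cause of these changes was not tested. *Gjb1* rests on 50 glial UMIs, and a single pelvic pair is the only replication among ganglia.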
